A study of Mus musculus with 9 samples.

Results

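The mouse mitochondrial genome carries 37 genes, and all of them are listed on chromosome MT, with symbols that begin mt-, in a count table of 55401 genes. They comprise 13 protein-coding genes, 2 rRNA genes and 22 tRNA genes. Membership was set by chromosome alone, but these genes were chosen as a subject with earlier results of these data known. Read counts came from 7 RNA-seq libraries of XEN cells, a female extra-embryonic endoderm stem cell line from a cross of Mus musculus molossinus with Mus musculus. All 3 groups share this line and its culture medium. DeltXp (n = 2) is labelled as a paternal Xist deletion and DeltXp_DeltXm (n = 2) as a homozygous one, both made upstream of Xist per the series text. WT_EV (n = 3) is the wild type, and what EV stands for is not given in the sources used here. Titles give both DeltXp libraries the name D1 and both DeltXp_DeltXm libraries the name D3. If these are single lines, deletion and line cannot be told apart. The series text speaks of 2 biological replicates for each deletion. It says nothing on how the WT_EV libraries were grown, so a p-value here measures the spread between these samples, which may be technical.

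Mitochondrial DNA is transcribed from both strands as long precursors, which are cut at the tRNAs that lie between the mRNAs and rRNAs. The rRNAs build the mitochondrial ribosome, and the mRNAs encode subunits of complexes I, III and IV of the respiratory chain and of the ATP synthase, complex V. Most mitochondrial mRNAs receive a poly(A) tail after cutting, and for some of them that tail completes the stop codon. In human cells the ND6 mRNA is known to lack a tail, and the rRNAs carry only very short ones.

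The annotated ends of the protein-coding genes show which reading frames lack a complete stop codon in the annotation. The last 24 bases of 7 of the 13 protein-coding genes follow, 5′ to 3′, from GENCODE M21 on GRCm38. Capitals mark the letters of the last codon. They are shown because mt-Co3, mt-Nd4 and mt-Cytb stop after a single T, whereas the other 10 genes are annotated with a complete stop codon. Annotated ends need not be the cut ends, since mt-Nd1 runs into mt-Ti, mt-Nd2 into mt-Tw and mt-Atp6 into mt-Co3. Which of these frames need the tail was not tested.
mt-Co3: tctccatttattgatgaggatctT
mt-Nd4: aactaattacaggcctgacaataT
mt-Cytb: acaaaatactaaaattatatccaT
mt-Co1: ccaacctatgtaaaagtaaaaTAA
mt-Atp6: ctatatctacatgataatacaTAA
mt-Nd6: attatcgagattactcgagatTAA
mt-Nd2: ctagccccccaactaattaccTAG

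The tRNA gene mt-Tw, for tryptophan, begins inside the stop codon of mt-Nd2. Capitals mark the 2 bases that both genes share (chromosome MT, 4950 to 5016, plus strand).
mt-Tw: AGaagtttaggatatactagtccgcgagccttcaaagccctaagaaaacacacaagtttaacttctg

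Several mitochondrial genes also have near-identical pseudogene copies in a block of chromosome 1, which bears on how reads were assigned. For 5 of them (mt-Atp6, mt-Co2, mt-Co3, mt-Nd4l and mt-Nd4) the aligned stretch held no mismatch. mt-Co1 and mt-Nd3 each differ from their copy at 1 base, in capitals below (A1066T and T3C, mitochondrial base first, positions counted from the first base of the mitochondrial gene).
mt-Co1: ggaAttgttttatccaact
Gm29216: ggaTttgttttatccaact
mt-Nd3: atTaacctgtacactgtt
Gm28438: atCaacctgtacactgtt

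The libraries held 24586135 and 29335803 counts in DeltXp, 25589912 and 27334893 in DeltXp_DeltXm, and 14352719 to 19833044 in WT_EV. The deletion libraries and WT_EV differed in more than mitochondrial RNA. Of 15331 genes tested, 72.3% were called between DeltXp and WT_EV and 66.8% between DeltXp_DeltXm and WT_EV. RNAs known to lack a poly(A) tail moved with the same split. Rn7sk, the 7SK RNA, had 3 and 4 counts in DeltXp libraries and 2 and 7 in DeltXp_DeltXm libraries, against 157188 to 255029 in WT_EV. The other 7 tested members of a list of such RNAs (the histone genes Hist1h1c, Hist1h3e, Hist1h4a and Hist2h2ac, the small RNAs Scarna2 and Scarna13, and Rpph1) went the same way. In the 4 deletion libraries Hist1h3e, Scarna13 and Rpph1 had 0 counts and Hist2h2ac, Scarna2 and Hist1h4a at most 1, so these passed the count filter through WT_EV alone and their direction is a description, not a test. The list summed to 4.35 and 18.6 CPM in DeltXp, 2.65 and 4.87 CPM in DeltXp_DeltXm, and 9870 to 16846 CPM in WT_EV. How RNA was selected for each library is not given in the sources used here, so a difference in selection and the deletions cannot be told apart, and this touches every comparison with WT_EV below. Xist itself had 17314 and 15447 CPM in DeltXp, 5460.0 and 8951 CPM in DeltXp_DeltXm, and 689 to 1563 CPM in WT_EV, so it was higher in the libraries labelled as deletions. Where the deleted segment begins and ends is not given, so these counts do not check it. Of 11 endoderm markers, 10 had a count in every DeltXp library and 11 in every DeltXp_DeltXm and WT_EV library. Col4a1 had 0 counts and Col4a2 4 counts in DeltXp replicate 1, against 51355 and 8241 in DeltXp replicate 2. Whether these 2 libraries come from 1 line was not tested. The summed endoderm markers were 7425 and 17427 CPM in DeltXp and 14566 and 11349 CPM in DeltXp_DeltXm, below the 23675 to 33959 CPM of WT_EV. Col4a1, Col4a2 and Lama1, singled out after their values were seen, held most of that gap: without them the sums were 5129 and 10093 CPM in DeltXp, 6979 and 6717 CPM in DeltXp_DeltXm, and 6140.4 to 7179 CPM in WT_EV, which overlap. Sox7 and Dab2 were higher in both deletions (2.33- and 2.68-fold in DeltXp, edgeR), Foxa2, Gata4 and Lama1 lower in both, and Sox17 lower in DeltXp_DeltXm. The 6 fibroblast markers held at most 1 count in a library. The 6 trophoblast markers summed to at most 1.85 CPM in a library, mostly Eomes. Of 6 pluripotency markers, Klf4 had 1487 to 9704 counts and overlapped between groups, Pou5f1 had 0 counts in all deletion libraries and 9, 12 and 3 in WT_EV, and the other 4 had at most 10.

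Mitochondrial genes took a smaller share of all counts in the deletion libraries than in WT_EV when the rRNAs were counted, and a larger share when they were not. With the rRNAs the share was 3.76% and 1.41% in DeltXp, 3.79% and 2.61% in DeltXp_DeltXm, and 6.20%, 6.01% and 9.33% in WT_EV. The deletion libraries all lay below WT_EV. Without the rRNAs, in both the numerator and the denominator, it was 2.39% ± 1.53 in DeltXp (SD, n = 2), 3.03% ± 0.792 in DeltXp_DeltXm (SD, n = 2) and 0.772% ± 0.126 in WT_EV (SD, n = 3). The lowest deletion library, DeltXp replicate 2 at 1.31%, still lay above the highest WT_EV library at 0.854%. The exact permutation test cannot go below a two-sided p of 0.2 for 2 libraries against 3, and gave 0.2 for each of these contrasts. Depth was not limiting for the shares: the widest 95% Wilson interval, of WT_EV replicate 3, ran from 9.32% to 9.35%, and it covers counting error only.

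**Figure D1:**
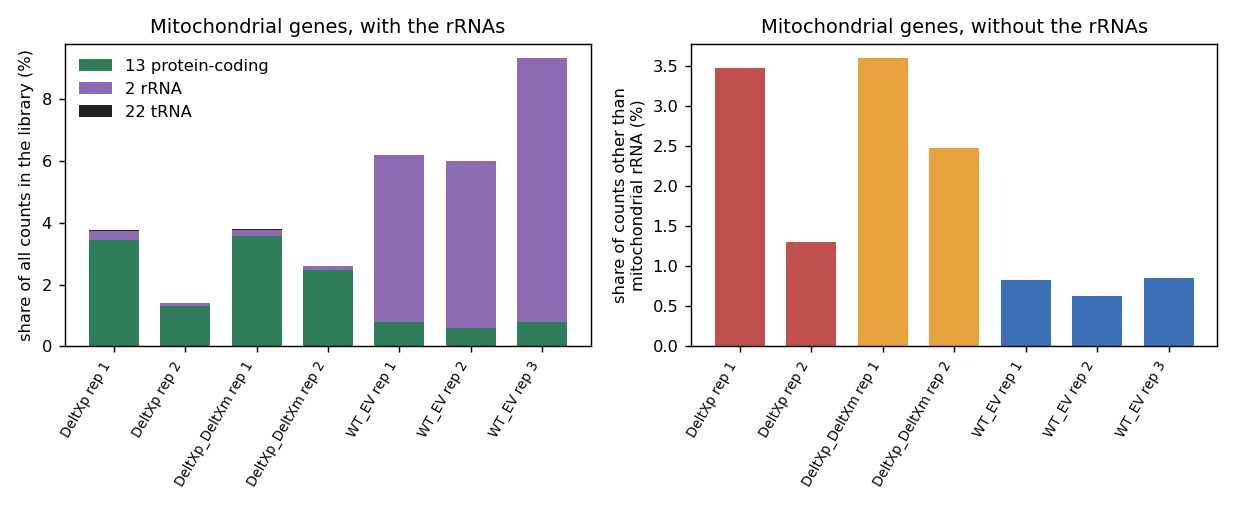
Bars give the share of counts (%) in mitochondrial genes for each library, split by class on the left with the 2 rRNAs, and on the right for counts other than mitochondrial rRNA. WT_EV bars on the left are mostly rRNA, and on the right all WT_EV bars, at most 0.854%, lie below the 4 deletion bars.

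The makeup of the mitochondrial counts differed more than their sum. The 2 rRNAs made up 7.57% ± 0.423 of mitochondrial counts in DeltXp (SD, n = 2), 5.42% ± 0.0545 in DeltXp_DeltXm (SD, n = 2) and 89.7% ± 2.22 in WT_EV (SD, n = 3). Put as a ratio, each protein-coding count came with 0.0856 and 0.0784 rRNA counts in DeltXp, 0.0579 and 0.0571 in DeltXp_DeltXm, and 6.87, 9.17 and 10.98 in WT_EV. The tRNA genes together held 0.0101% and 0.00137% of all counts in DeltXp, 0.0104% and 0.00710% in DeltXp_DeltXm, and 0.00227% to 0.00311% in WT_EV. The DeltXp libraries lay on both sides of WT_EV (exact permutation test, two-sided p = 0.8), so the direction there turns with the library left out. Both DeltXp_DeltXm libraries lay above WT_EV. Of mitochondrial counts without rRNA, tRNA genes held 0.2919% and 0.1050% in DeltXp and 0.2901% and 0.2877% in DeltXp_DeltXm. In WT_EV they held 0.2907% to 0.5241%. On that measure both DeltXp_DeltXm libraries lay just below WT_EV, and DeltXp overlapped it. In bulk RNA, fewer mitochondria, fewer cells with active ones and less RNA in each cannot be told apart.

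mt-Rnr1 (chromosome MT, 70 to 1024), the small-subunit rRNA, had 977 and 401 CPM in DeltXp, 706 and 693 CPM in DeltXp_DeltXm, and 4266, 4914 and 19301 CPM in WT_EV, where CPM is the count over edgeR's TMM-scaled library size, scaled to 1e6. All deletion libraries were lower than all WT_EV libraries, among which replicate 3 stood far above the rest. The log2 change was -3.78 ± 0.65 in DeltXp (SE, adjusted p = 0.00227, edgeR) and -3.76 ± 0.65 in DeltXp_DeltXm (SE, adjusted p = 0.00269, edgeR). mt-Rnr2 (chromosome MT, 1094 to 2675), the large-subunit rRNA, had 2740.2 and 757 CPM in DeltXp, 1492 and 815 CPM in DeltXp_DeltXm, and 42236, 40391 and 54307 CPM in WT_EV. The groups did not overlap, and the fall was 26.1-fold in DeltXp (adjusted p = 7.87e-05, edgeR) and 39.6-fold in DeltXp_DeltXm (adjusted p = 6.51e-05, edgeR). Without WT_EV replicate 3 the mt-Rnr1 change was -2.75 in DeltXp and -2.73 in DeltXp_DeltXm, and without DeltXp replicate 1 it was -4.47 in DeltXp. Likewise, the mt-Rnr2 change in DeltXp was -5.80 without DeltXp replicate 1 and -4.05 without DeltXp replicate 2, all past the threshold. The rRNAs did not keep a fixed ratio between libraries. There were 2.80 and 1.89 mt-Rnr2 counts for each mt-Rnr1 count in DeltXp, 2.11 and 1.18 in DeltXp_DeltXm, and 9.90, 8.22 and 2.81 in WT_EV. The rRNAs moved in the same direction as the RNAs without a poly(A) tail above. The change of mt-Nd6, whose human counterpart also lacks a tail, went the other way (log2 4.50 in DeltXp and 4.51 in DeltXp_DeltXm). Whether the mouse RNA lacks a tail was not tested. With the strand setting of the counting not given, mt-Nd6 counts may also include reads of the other strand. The part that RNA selection has in the fall cannot be told apart from that of the deletions.

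The 13 mRNAs counted here and below are annotated protein-coding genes. Since mt-Atp8 overlaps mt-Atp6 and mt-Nd4l overlaps mt-Nd4, the genes of each pair need not be separate RNAs. Among the 13 mRNAs, 9 were higher and none lower in DeltXp than in WT_EV, where 32.2% of all genes tested were higher and 40.1% lower. In DeltXp_DeltXm 10 were higher and none lower, where 30.9% of all genes tested were higher and 36% lower. The median log2 change of the 13 was 1.96 in DeltXp, against -0.35 over all genes tested, and 2.08 in DeltXp_DeltXm, against -0.15 over all genes tested. All DeltXp libraries lay above all WT_EV libraries for 8 of the 13, and all DeltXp_DeltXm libraries for 10, where 36.8% and 36.4% of all genes tested did so. Both rRNAs lay below in each, where 45.2% and 41.8% of all genes tested did so. Each of these counts, and each count of mRNAs called below, includes mt-Atp8, which passed the count filter through the deletion libraries alone and so had to differ. Without it 8 of the other 12 were called higher in DeltXp and 9 in DeltXp_DeltXm. These 2 comparisons share the WT_EV libraries.

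**Figure D2:**
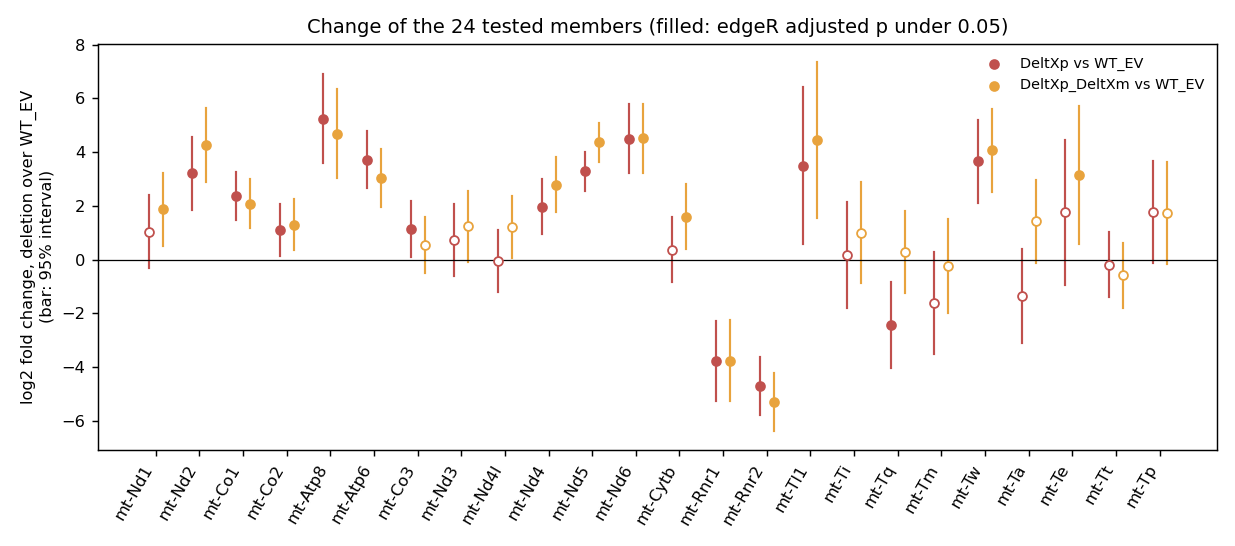
Points give the log2 fold change of each deletion over WT_EV for the 24 members that passed the count filter, with 95% intervals, filled where the edgeR adjusted p was under 0.05. The rRNA changes run from -5.31 to -3.76, and the mRNA changes run from -0.05 for mt-Nd4l to 5.24 for mt-Atp8.

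Complex I, the NADH dehydrogenase, takes 7 of the mitochondrial mRNAs, and its members differed widely in their change. mt-Nd6, the single mRNA on the minus strand (chromosome MT, 13552 to 14070), had 3459 and 818 CPM in DeltXp, 1976 and 2342 CPM in DeltXp_DeltXm, and 50.0, 116 and 118 CPM in WT_EV. Every deletion library lay above every WT_EV library. The log2 change was 4.50 ± 0.56 in DeltXp (SE, adjusted p = 0.000165, edgeR) and 4.51 ± 0.56 in DeltXp_DeltXm (SE, adjusted p = 0.000216, edgeR). mt-Nd5, the longest mRNA (chromosome MT, 11742 to 13565), had 2977 and 1669.8 CPM in DeltXp, 5921 and 3866 CPM in DeltXp_DeltXm, and 199 to 296 CPM in WT_EV. Its groups did not overlap, and its log2 change was 3.29 ± 0.32 in DeltXp (SE, adjusted p = 1.58e-05, edgeR) and 4.36 ± 0.32 in DeltXp_DeltXm (SE, adjusted p = 9.38e-06, edgeR). Without DeltXp replicate 1 the mt-Nd6 change in DeltXp was 3.22, and without DeltXp replicate 2 it was 5.20, both past the threshold. mt-Nd5 and mt-Nd6 overlap at their ends on opposite strands, and since the strand setting of the counting is not given, reads of antisense partners cannot be told apart.

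mt-Nd2 had 1531 and 345 CPM in DeltXp, 2855 and 1059 CPM in DeltXp_DeltXm, and 85.6 to 127 CPM in WT_EV. It was higher in each deletion library than in any WT_EV library, by log2 3.21 ± 0.60 in DeltXp (SE, adjusted p = 0.0015, edgeR) and 4.27 ± 0.60 in DeltXp_DeltXm (SE, adjusted p = 0.000447, edgeR). Its upstream neighbour mt-Nd1 differed less. mt-Nd1 had 2724 and 682 CPM in DeltXp, 4501 and 1555 CPM in DeltXp_DeltXm, and 861, 597 and 1024 CPM in WT_EV. DeltXp overlapped WT_EV (log2 1.04 ± 0.60 SE, adjusted p = 0.14, edgeR), whereas DeltXp_DeltXm was higher (log2 1.87 ± 0.60 SE, adjusted p = 0.0206, edgeR). These values lean on single libraries. mt-Nd2 changed by 1.88 without DeltXp replicate 1 and 3.93 without DeltXp replicate 2 in DeltXp, and by 3.47 without DeltXp_DeltXm replicate 1 in DeltXp_DeltXm, each past the threshold. mt-Nd1 passed in DeltXp without DeltXp replicate 2 (1.73), and did not pass in DeltXp_DeltXm without DeltXp_DeltXm replicate 1 (0.99) or WT_EV replicate 2 (1.66). The count of mt-Nd2 for each mt-Nd1 count was accordingly 0.562 and 0.506 in DeltXp, 0.634 and 0.681 in DeltXp_DeltXm, and 0.107, 0.143 and 0.124 in WT_EV, with no overlap between the deletions and WT_EV. mt-Nd4 was higher in both deletions (log2 1.96 and 2.79 in DeltXp and DeltXp_DeltXm). In DeltXp_DeltXm mt-Nd4 changed by 1.89 without DeltXp_DeltXm replicate 1 and 3.37 without DeltXp_DeltXm replicate 2. The short mt-Nd3 and mt-Nd4l did not pass the test in either: mt-Nd3 changed by log2 0.73 (95% interval -0.60 to 2.06) in DeltXp and 1.24 (-0.08 to 2.57) in DeltXp_DeltXm, and mt-Nd4l by -0.05 (-1.21 to 1.11) in DeltXp and 1.22 (0.06 to 2.37, adjusted p = 0.0575, edgeR) in DeltXp_DeltXm. In DeltXp_DeltXm both passed without DeltXp_DeltXm replicate 2 (1.90 for mt-Nd3 and 1.92 for mt-Nd4l), and mt-Nd4l also without WT_EV replicate 3 (1.41).

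Complex III has 1 mitochondrial subunit, cytochrome b. mt-Cytb had 1309 and 502 CPM in DeltXp, 3207 and 1044 CPM in DeltXp_DeltXm, and 494 to 935 CPM in WT_EV. One DeltXp library lay within the WT_EV range and the other above it, and both DeltXp_DeltXm libraries lay above it. The log2 change was 0.37 ± 0.53 in DeltXp (SE, adjusted p = 0.543, edgeR) and 1.60 ± 0.53 in DeltXp_DeltXm (SE, adjusted p = 0.0235, edgeR). The call in DeltXp_DeltXm was lost without DeltXp_DeltXm replicate 1 (0.66), WT_EV replicate 1 (1.55) or WT_EV replicate 2 (1.38), and without DeltXp_DeltXm replicate 2 the change was 2.21.

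Complex IV, cytochrome c oxidase, takes its 3 catalytic-core subunits from mitochondrial DNA. mt-Co1 (chromosome MT, 5328 to 6872) held more counts than the other mRNAs in every library: 28889 and 9668 CPM in DeltXp, 16275 and 15392 CPM in DeltXp_DeltXm, and 4408, 3095 and 3689.7 CPM in WT_EV. The groups did not overlap, and the rise was 5.17-fold in DeltXp (adjusted p = 0.000443, edgeR) and 4.24-fold in DeltXp_DeltXm (adjusted p = 0.00116, edgeR). mt-Co2 had few reads for its length, 635 and 401 counts in DeltXp, 931 and 411 in DeltXp_DeltXm, and 231, 214 and 187 in WT_EV. All deletion libraries lay above WT_EV, also in CPM. The rise was 2.16-fold in DeltXp (adjusted p = 0.0373, edgeR) and 2.47-fold in DeltXp_DeltXm (adjusted p = 0.0204, edgeR). mt-Co3 passed narrowly in DeltXp (2.18-fold, adjusted p = 0.0491, edgeR) although its libraries there, at 460.2 and 161 CPM, overlapped the 128 to 171 CPM of WT_EV. In DeltXp_DeltXm, at 291 and 122 CPM, it did not pass (1.45-fold, adjusted p = 0.324, edgeR). Both calls rest on single libraries. In DeltXp, mt-Co2 did not pass without DeltXp replicate 1 (log2 0.60) or without any one WT_EV library (0.96 to 1.22), and neither did mt-Co3 (0.29 without DeltXp replicate 1, and 1.03 to 1.25 without a WT_EV library). In DeltXp_DeltXm, mt-Co2 did not pass without DeltXp_DeltXm replicate 1 (0.63) or WT_EV replicate 2 (1.15). mt-Co1 passed throughout, at 1.49 without DeltXp replicate 1 and 2.96 without DeltXp replicate 2.

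Complex V has the adjacent and overlapping genes mt-Atp8 and mt-Atp6. mt-Atp8, a 204-base gene (chromosome MT, 7766 to 7969), had 178 and 103 counts in DeltXp, 156 and 63 in DeltXp_DeltXm, and 3, 6 and 1 in WT_EV. Its fitted log2 change was 5.24 ± 0.74 in DeltXp (SE) and 4.69 ± 0.74 in DeltXp_DeltXm (SE), given as a description, since its WT_EV counts are few and it could pass the filter only where it is high. Every deletion library lay above WT_EV. Without replicate 1 of the deletion group the change was 4.65 in DeltXp and 3.92 in DeltXp_DeltXm. mt-Atp6 (chromosome MT, 7927 to 8607) had 877 and 279 CPM in DeltXp, 492 and 229.5 CPM in DeltXp_DeltXm, and 36.5 to 54.9 CPM in WT_EV. No deletion library overlapped WT_EV, and the rise was 13.2-fold in DeltXp (adjusted p = 0.000121, edgeR) and 8.26-fold in DeltXp_DeltXm (adjusted p = 0.000473, edgeR). In DeltXp the log2 change of mt-Atp6 was 2.78 without DeltXp replicate 1 and 4.34 without DeltXp replicate 2. The mt-Atp6 count for each count of its neighbour mt-Co3 was 1.91 and 1.73 in DeltXp, 1.69 and 1.88 in DeltXp_DeltXm, and 0.213, 0.308 and 0.429 in WT_EV.

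**Figure D3:**
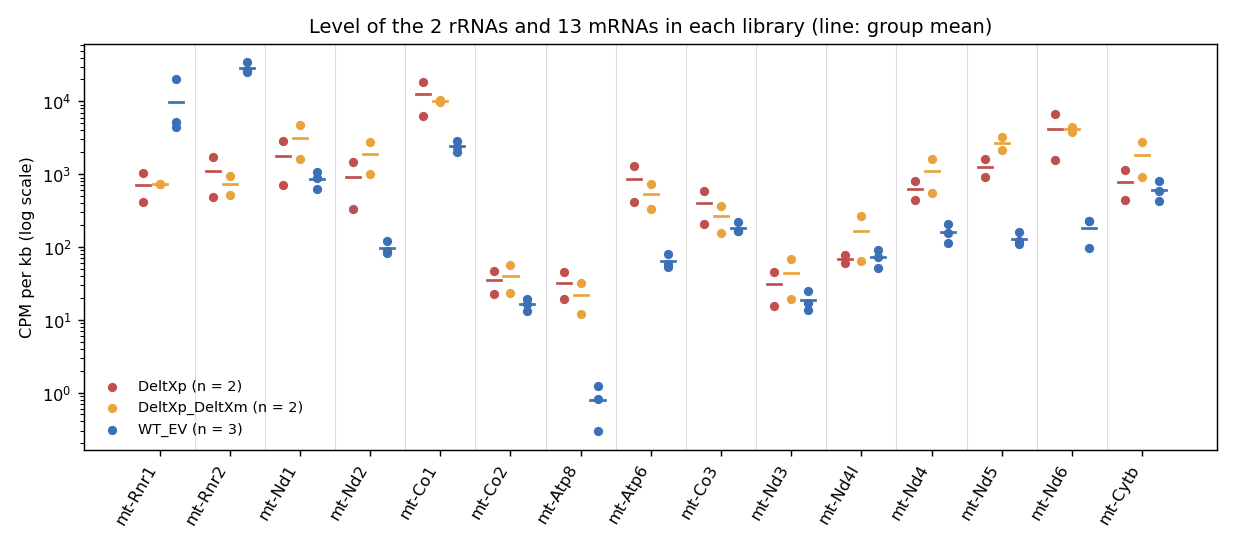
Each point is 1 library and each line a group mean, in CPM per kb of gene length on a log axis, for the 2 rRNAs and 13 mRNAs in genome order. mt-Co1 is the highest mRNA in each group, and mt-Atp8 is the lowest in WT_EV at a mean of 0.787 CPM per kb.

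Scaled by length, mt-Co1 led in each group, at 12478 ± 8797 CPM per kb in DeltXp (SD, n = 2), 10248 ± 404 CPM per kb in DeltXp_DeltXm (SD, n = 2) and 2415 ± 426 CPM per kb in WT_EV (SD, n = 3). The next places differed. mt-Nd6, mt-Nd1 and mt-Nd5 followed in both deletions, whereas mt-Nd1 and mt-Cytb followed in WT_EV and mt-Nd6 took place 4 there at 182 ± 74.5 CPM per kb (SD, n = 3). In DeltXp every neighbour down to mt-Co3 overlapped the next in its range over libraries, so that order is loose, and mt-Nd4l then stood clear of its neighbours on both sides. In DeltXp_DeltXm mt-Co1 alone stood clear of the next. In WT_EV gaps without overlap followed mt-Co1, mt-Cytb, mt-Atp6 and mt-Co2.

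Within the mRNA counts of each library the makeup also differed. mt-Nd6 made up 6.75% ± 1.71 of mitochondrial mRNA counts in DeltXp (SD, n = 2), 7.04% ± 2.58 in DeltXp_DeltXm (SD, n = 2) and 1.62% ± 0.815 in WT_EV (SD, n = 3), and mt-Cytb 3.21%, 6.20% and 11.3% in the same groups. Complex I mRNAs together made up 27.7% ± 0.528 in DeltXp (SD, n = 2), 41.4% ± 7.11 in DeltXp_DeltXm (SD, n = 2) and 24.5% ± 3.30 in WT_EV (SD, n = 3), with DeltXp and WT_EV overlapping. When libraries were scaled to their mitochondrial mRNA counts in place of TMM, the median of all genes moved to log2 -2.21 in DeltXp and -2.54 in DeltXp_DeltXm, and the picture among the mRNAs became one of unequal change. mt-Atp8 and mt-Nd6 were then higher and mt-Nd4l and mt-Cytb lower in DeltXp (edgeR, 3.47% of all genes tested higher and 54.5% lower). mt-Nd2, mt-Atp8, mt-Nd5 and mt-Nd6 were higher and mt-Co3 lower in DeltXp_DeltXm (edgeR, 1.18% of all genes tested higher and 62.1% lower). Both rRNAs were lower in either deletion on this scale too, by log2 -5.92 to -7.74.

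Of the 22 tRNA genes, 9 passed the count filter, 10 others had 13 counts or fewer in each library, and mt-Tf, mt-Tk and mt-Tr had none. For counting error only, a count of 0 allows up to 0.116 to 0.18 CPM depending on the library. mt-Tk and mt-Tr lie between mRNA genes whose copies neighbour each other on chromosome 1. Any reads dropped for matching several places would be outside that limit. Mature tRNAs are short and structured, and reads on these genes can also come from precursors. A gene that passed the filter only through the group where it is high had to differ, so the counts among the 9 are given as description. In DeltXp 2 were higher (mt-Tl1 and mt-Tw) and 1 lower (mt-Tq), where 32.2% of all genes tested were higher and 40.1% lower. In DeltXp_DeltXm 3 were higher (mt-Tl1, mt-Tw and mt-Te), where 30.9% of all genes tested were higher and 36% lower. mt-Tl1 had 2, 5 and 0 counts in WT_EV, and mt-Te 2, 4 and 0. Both could pass the filter only through the deletion libraries, so their changes below are description too. mt-Tw had 62.8 and 7.72 CPM in DeltXp, 47.3 and 47.0 CPM in DeltXp_DeltXm, and 2.58 to 3.12 CPM in WT_EV. Its rise was 12.6-fold in DeltXp (adjusted p = 0.00134, edgeR) and 16.9-fold in DeltXp_DeltXm (adjusted p = 0.000912, edgeR), with no overlap. Set against mt-Nd2, with which it shares its first bases, it did not stand out: each 1e3 mt-Nd2 counts came with 41.0 and 22.4 mt-Tw counts in DeltXp, 16.6 and 44.4 in DeltXp_DeltXm, and 28.7, 36.5 and 20.4 in WT_EV, where all groups overlap. mt-Tq, for glutamine and on the minus strand, had 1.84 and 0.463 CPM in DeltXp, 12.4 and 2.44 CPM in DeltXp_DeltXm, and 5.74 to 6.48 CPM in WT_EV. It fell 5.42-fold in DeltXp (adjusted p = 0.0166, edgeR), and DeltXp_DeltXm libraries lay on both sides of WT_EV. mt-Tp, for proline, had 52.4 and 3.82 CPM in DeltXp, 35.1 and 20.3 CPM in DeltXp_DeltXm, and 6.75 to 10.5 CPM in WT_EV. Both DeltXp_DeltXm libraries lay above WT_EV, but mt-Tp passed in neither deletion (adjusted p = 0.0812 in DeltXp and 0.0881 in DeltXp_DeltXm, edgeR). Several tRNA calls rest on 1 library. In DeltXp, the log2 change of mt-Tq was -1.73 without DeltXp replicate 2 and did not pass, and that of mt-Tw was 1.58 without DeltXp replicate 1 and 4.50 without DeltXp replicate 2, both past the threshold. mt-Tl1 did not pass in DeltXp without DeltXp replicate 1 (1.30), WT_EV replicate 1 (3.47) or WT_EV replicate 3 (2.98), nor in DeltXp_DeltXm without DeltXp_DeltXm replicate 1 (2.71). mt-Te did not pass in DeltXp_DeltXm without DeltXp_DeltXm replicate 1 (1.68) or WT_EV replicate 1 (3.23).

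Between the deletions, DeltXp_DeltXm against DeltXp, none of the 24 tested members passed edgeR's test, where 0.444% of all genes tested did. DESeq2 called 1 of them, the tRNA mt-Tq, where it called 7.62% of the genes it tested. The DeltXp_DeltXm libraries both lay above the DeltXp libraries for 4 of the 24 (mt-Nd5, mt-Tq, mt-Ta and mt-Ti), where 27.2% of all genes tested did so, and both below for 0, where 23.2% did. The members nearest to a call were mt-Nd5 (log2 1.07 ± 0.35 SE, adjusted p = 0.139, edgeR), mt-Tq (log2 2.71 ± 0.78 SE, adjusted p = 0.113, edgeR) and mt-Ta (log2 2.78 ± 0.82 SE, adjusted p = 0.112, edgeR). Intervals were wide: for mt-Co1 the 95% interval of the log2 difference ran from -1.27 to 0.70. The spread within groups was large for these genes. DeltXp replicate 1 lay above replicate 2 for 13 of 13 mRNAs, by 1.30- to 4.44-fold, and DeltXp_DeltXm replicate 1 above replicate 2 for 12 of 13. The highest WT_EV library exceeded the lowest by 1.34- to 4.22-fold.

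Near-identical chromosome 1 copies were found for 7 of the mRNAs. mt-Co2 and Gm28661 match over 681 of the 684 bases of mt-Co2 with no mismatch, and Gm28661 lies at chromosome 1, 24614885 to 24615565 (GRCm38). How reads that map to several places were handled is not given, so counts of the 7 are uncertain. Where the match covers nearly the whole gene, the count of the mitochondrial gene was 0.389 to 4.09 times that of its copy over the 7 libraries (mt-Atp6, mt-Co2, mt-Co3, mt-Nd3 and mt-Nd4l). The mt-Co2 count was 1.67 and 1.03 times that of Gm28661 in DeltXp, 0.846 and 1.04 times in DeltXp_DeltXm, and 0.494 to 0.577 times in WT_EV. For mt-Co1, whose copy covers 483 of its 1545 bases, the ratio was 544 to 1577 over the 7 libraries. The median level of the 7 mRNAs with such a copy was 396 CPM per kb in DeltXp, 263 CPM per kb in DeltXp_DeltXm and 71.7 CPM per kb in WT_EV. For the 6 in which none was found it was 1089, 2284 and 157 CPM per kb, and the ranges overlapped in each group. Of these 6, mt-Nd2, mt-Cytb, mt-Nd5 and mt-Nd6 have copies of 92.3% to 96.7% identity elsewhere. mt-Atp8 lies between mt-Co2 and mt-Atp6, whose copies neighbour each other on chromosome 1. The search covered annotated transcripts only, so a copy of mt-Atp8 there would have been missed. mt-Atp6 outnumbered Gm10925 by 3.43 to 4.09 times in the deletions and by 1.56 to 2.39 times in WT_EV. When the counts of each copy were added to its mitochondrial gene, 7 mRNAs were higher in DeltXp and 9 in DeltXp_DeltXm, and mt-Co2 and mt-Co3 no longer passed in DeltXp.

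**Figure D4:**
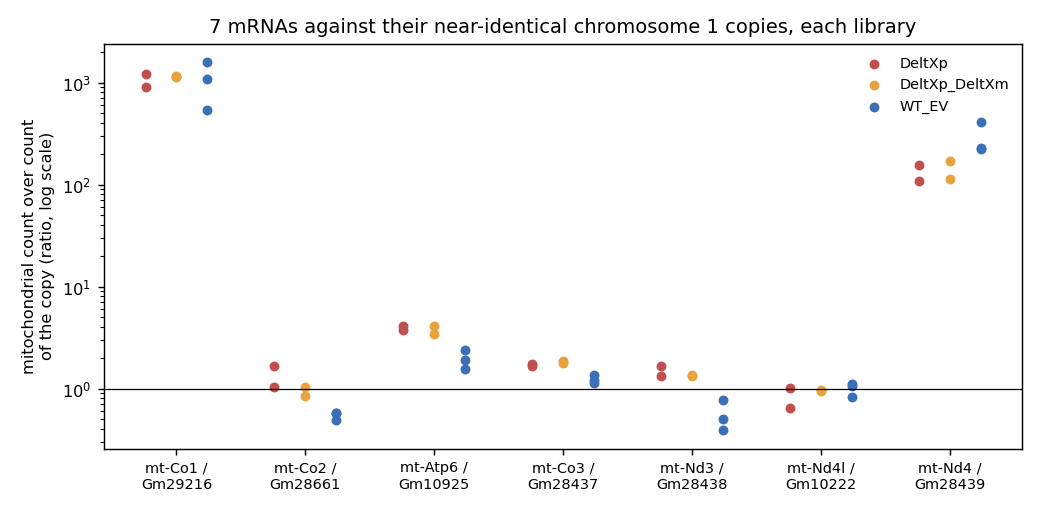
Points give, for each library, the count of a mitochondrial mRNA over that of its near-identical chromosome 1 copy, on a log axis with a line at 1. Ratios lie between 0.389 and 1.87 for mt-Co2, mt-Co3, mt-Nd3 and mt-Nd4l, and between 544 and 1577 for mt-Co1.

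The nuclear genes that read, cut, modify and copy mitochondrial DNA moved both ways. Of 52 such genes found in the table, all tested, 17 were higher and 19 lower in DeltXp, and 21 were higher and 17 lower in DeltXp_DeltXm, which is close to the 72.3% and 66.8% called over all genes. The median log2 change was 0.10 in DeltXp and 0.32 in DeltXp_DeltXm. None passed between DeltXp_DeltXm and DeltXp with edgeR, where 0.444% of all genes tested did. DESeq2 called 3, where it called 7.62% of the genes it tested.

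The counts in the 4 lists that follow stand beside 32.2% higher and 40.1% lower over all genes tested in DeltXp, and 30.9% higher and 36% lower in DeltXp_DeltXm. Transcription had 5 of 10 genes higher and 3 lower in DeltXp, and 7 higher and 2 lower in DeltXp_DeltXm. Polrmt, the RNA polymerase of mitochondria, averaged 0.680 ± 0.239 CPM in DeltXp (SD, n = 2), 0.618 ± 0.404 CPM in DeltXp_DeltXm (SD, n = 2) and 32.2 ± 4.87 CPM in WT_EV (SD, n = 3), log2 changes of -5.53 and -5.68 (adjusted p = 1.02e-05 and 1.52e-05, edgeR). Tfam, which packages mitochondrial DNA and opens its promoters, averaged 111 ± 20.5 CPM in DeltXp (SD, n = 2), 119.99 ± 1.54 CPM in DeltXp_DeltXm (SD, n = 2) and 45.2 ± 1.11 CPM in WT_EV (SD, n = 3), log2 changes of 1.30 and 1.41 (adjusted p = 0.00043 and 0.000322, edgeR). Mrpl12, a ribosomal protein reported to bind the polymerase, was lower (log2 -5.02 in DeltXp and -4.71 in DeltXp_DeltXm), and Mterf3, of the termination factor family, was higher (2.38 in DeltXp and 1.73 in DeltXp_DeltXm).

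RNA processing and stability had 10 of 22 genes higher and 7 lower in DeltXp, and 10 higher and 6 lower in DeltXp_DeltXm. Mtpap, the mitochondrial poly(A) polymerase, averaged 109.7 ± 27.7 CPM in DeltXp (SD, n = 2), 57.9 ± 18.5 CPM in DeltXp_DeltXm (SD, n = 2) and 19.98 ± 2.19 CPM in WT_EV (SD, n = 3), log2 changes of 2.46 and 1.53 (adjusted p = 3.48e-05 and 0.000848, edgeR). Lrpprc, which holds mRNAs stable, did not pass in either (log2 -0.18 in DeltXp and 0.34 in DeltXp_DeltXm). Pnpt1, a polynucleotide phosphorylase that takes part in RNA decay, was higher by log2 3.07 in DeltXp and 2.90 in DeltXp_DeltXm, as was Grsf1, a protein of mitochondrial RNA granules, by 1.80 in DeltXp and 2.08 in DeltXp_DeltXm. Members of the FASTK family of RNA-binding proteins went both ways: Fastkd1 (log2 2.22 and 1.51) and Fastkd2 (1.42 and 1.94) were higher, and Fastk (-3.49 and -3.06) and Tbrg4 (-5.96 and -4.80) lower, each pair given for DeltXp and then DeltXp_DeltXm.

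Lists this short give loose shares, to be read against those over all genes tested. Of 8 genes that modify mitochondrial rRNA, 0 were higher and 5 lower in DeltXp, and 1 was higher and 5 lower in DeltXp_DeltXm. Of 12 genes of mitochondrial DNA replication, 2 were higher and 4 lower in DeltXp, and 3 were higher and 4 lower in DeltXp_DeltXm. Polg, the catalytic subunit of the DNA polymerase, averaged 32.6 ± 4.21 CPM in DeltXp (SD, n = 2), 40.07 ± 9.89 CPM in DeltXp_DeltXm (SD, n = 2) and 173 ± 7.62 CPM in WT_EV (SD, n = 3), log2 changes of -2.41 and -2.11 (adjusted p = 2.52e-05 and 7.42e-05, edgeR). The topoisomerase Top1mt was lower (log2 -4.31 in DeltXp and -3.02 in DeltXp_DeltXm), and Rrm2b, a ribonucleotide reductase subunit, was higher (3.30 in DeltXp and 2.07 in DeltXp_DeltXm).

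**Figure D5:**
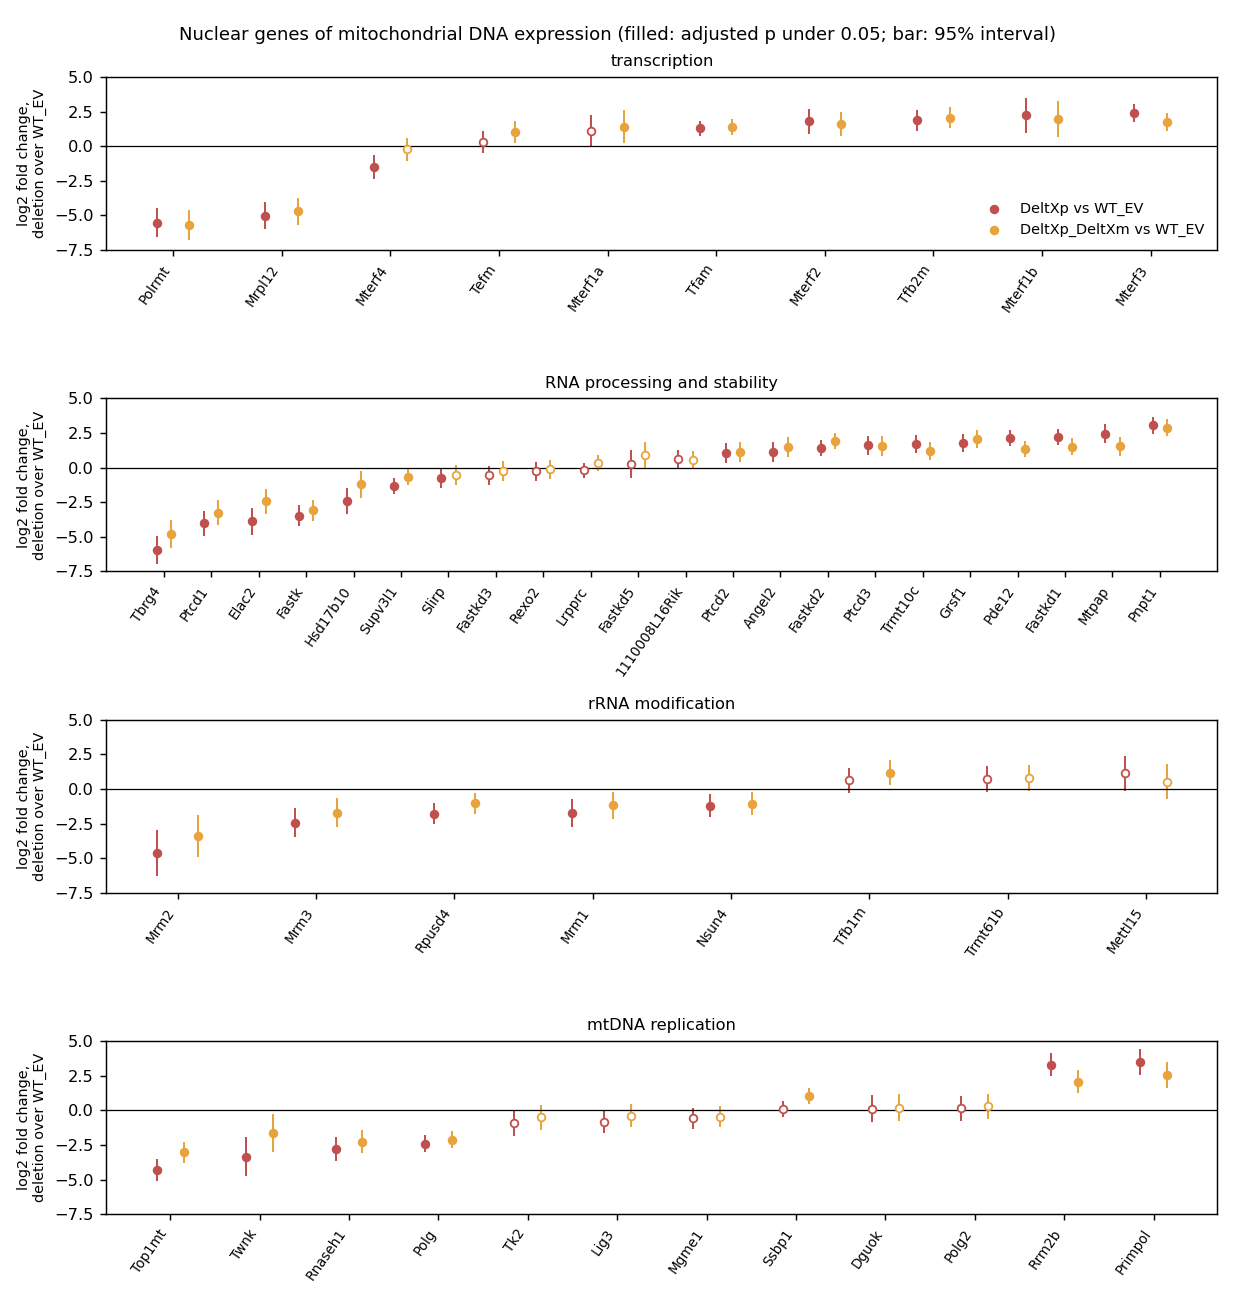
Points give the log2 fold change of each deletion over WT_EV for 52 nuclear genes in 4 lists, with 95% intervals, filled where the edgeR adjusted p was under 0.05. Polrmt, Mrpl12 and Tbrg4 lie below -4.5 in both deletions, and Pnpt1 lies near 3 in both.

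GC content differed between the mitochondrial genes and the other genes tested. The mitochondrial mRNAs hold 31.9% to 41.1% GC, with a median of 37.1%, against a median of 48.7% over all genes tested. mt-Rnr1 at 35.8% and mt-Rnr2 at 35.4% lie within the mRNA range, though the rRNAs were lower and no mRNA was. What part GC content has in the changes was not tested. In a fit with offsets for GC content and length, 25.5% of all genes were higher and 24.9% lower in DeltXp, and 22.5% higher and 20.5% lower in DeltXp_DeltXm. There 6 of the 13 mRNAs (mt-Nd2, mt-Co1, mt-Atp8, mt-Atp6, mt-Nd5 and mt-Nd6) were higher in DeltXp and 9 were higher in DeltXp_DeltXm, none lower, and both rRNAs were lower by log2 -4.08 to -6.09. mt-Co1 changed by 1.03 in DeltXp and 1.15 in DeltXp_DeltXm, and mt-Nd6 by 3.97 in DeltXp and 4.73 in DeltXp_DeltXm. Among the nuclear genes named above, Tfam, Fastk and Fastkd2 passed in neither deletion in that fit, whereas Polrmt (log2 -2.08 in DeltXp and -2.22 in DeltXp_DeltXm), Mrpl12, Tbrg4 and Polg were lower and Pnpt1 and Grsf1 higher in both.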

How the data were processed

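Total RNA was extracted with Trizol and made into stranded libraries of 1 of the named makes, per the labels' protocols; which make went with which library is not given. The submitters' processing notes name FastQC, STAR 2.7.9a, featureCounts 2.0.1 and the build GRCm38 (mm10). The authors deposited raw read counts per gene in 1 table for these 7 libraries, whose totals (14352719 to 29335803 counts) set the precision, and in another for the wild-type clone libraries. The clone table was held in part, 11512 genes with none on chromosome MT, and enters no comparison. No source used here gives the strand setting or what was done with reads that matched several places.

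The filter filterByExpr left 15331 genes and removed 40070. Library sizes were scaled by TMM. The test was edgeR 4.0.16's robust quasi-likelihood test, run under R 4.3.3 on a model of group alone, with p-values adjusted by Benjamini and Hochberg's method across the 15331 genes. A gene was called at an adjusted p under 0.05. The common biological coefficient of variation was 33.7%. Intervals are 95%. Shares used counts as deposited and two-sided exact permutation tests (scipy 1.17.1). Copies were found with blastn 2.17.0 among GENCODE M21 transcripts, at 99% identity or more over at least 200 bases, and figures drawn with matplotlib 3.10.9. Alternatives were DESeq2 1.42.0, other scalings, filters and sample choices, offsets for GC content and length, and leaving out each library. Equal replicate numbers were not taken to pair libraries. Correlations of deviations from the group means between equally numbered libraries ran from -0.201 to 0.057. Between the deletion groups, with 2 libraries each, swapping the numbers only turns the sign, so the value cannot decide on pairing.

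The members and gene lists were chosen with earlier results of these data known. Nuclear genes were named by rule: the 4 called genes with the lowest p in each direction in each comparison with WT_EV, plus Tfam, Polrmt, Lrpprc, Mtpap and Polg. All 37 mitochondrial genes and all tested RNAs of the list without a poly(A) tail could be named as well.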

Additional observations from a re-analysis of the deposited data

How the results depend on the processing

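Both rRNAs were lower and no mRNA was lower in either deletion against WT_EV under DESeq2, without the count filter, under upper-quartile scaling, under scaling without mitochondrial genes, with only the 2 groups compared, with the replicate block, with any library left out, with offsets for GC content and length, and with chromosome 1 copies added. Scaling to mitochondrial mRNA counts moved the number of mRNAs called to 4 in DeltXp and 5 in DeltXp_DeltXm. On that scale the sign turned for 9 mitochondrial genes in DeltXp and 11 in DeltXp_DeltXm, many of which passed on neither scale. Those that passed on at least 1 scale were, in DeltXp, mt-Co2 (log2 -1.01), mt-Co3 (-1.13), mt-Nd4 (-0.10) and mt-Cytb (-1.81), and in DeltXp_DeltXm mt-Nd1 (-0.59), mt-Co1 (-0.27), mt-Co2 (-1.15), mt-Co3 (-1.93), mt-Cytb (-0.86) and mt-Tq (-2.27). The scaling itself sets the mitochondrial mRNA total equal between libraries. Offsets for GC content and length turned mt-Tt (1.59 in DeltXp, 1.73 in DeltXp_DeltXm) and mt-Tm (2.19 in DeltXp_DeltXm), called 16 of the 52 nuclear genes in DeltXp_DeltXm in place of 38 (26 in place of 36 in DeltXp), and moved the calls among mt-tRNAs to 5 in DeltXp and 9 in DeltXp_DeltXm; the cause was not tested. Between DeltXp_DeltXm and DeltXp, DESeq2 called 1 mitochondrial gene and 3 nuclear genes of the list, where it called 7.62% of the genes it tested. The fit without a count filter called 5 mitochondrial genes (3 of them mRNAs) and 4 nuclear genes there. For that fit, the replicate blocks, the added copies and the fits with a library left out, no share over all genes is given. Their counts therefore describe the setting and are not a result about the members. Leaving the rRNAs out of numerator and denominator moved the share of mitochondrial genes to 0.772% in WT_EV.

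Replicates are numbered by the rep number of the titles. The DeltXp titles carry a second number that runs the other way, and no source says that either marks a shared batch. Paired by that second number, deviations of the deletion libraries correlated at 0.201 in place of -0.201, and that pairing is the crossed one below. With the replicate block, 14 and 16 mitochondrial genes were called in DeltXp and DeltXp_DeltXm, against 14 and 15 without it, and 0 between the deletions. A block fitted to the deletion groups alone called 1 mitochondrial gene, and the crossed pairing called 0 mitochondrial genes and 1 nuclear gene of the list; both were chosen after seeing the data, as was adding the copies.

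Leaving out 1 library at a time gave 7 to 10 mRNAs called in DeltXp and 7 to 12 in DeltXp_DeltXm, 11 to 15 and 10 to 19 mitochondrial genes, and 32 to 39 and 30 to 37 nuclear genes of the list. None was called between the deletions. The mRNA share ran from 1.30% to 3.45% in DeltXp, 2.46% to 3.57% in DeltXp_DeltXm and 0.685% to 0.783% in WT_EV, and the share of all mitochondrial genes from 1.41% to 3.76%, 2.61% to 3.79% and 6.10% to 7.76%. With 2 libraries a deletion group, 1 library remains in such fits and is assumed to vary like the others.
Of the calls across all genes tested, 4930 were higher and 6149 lower in DeltXp with TMM, against 532 and 8348 when scaled to mitochondrial mRNA counts. In DeltXp_DeltXm the split was 4730 and 5513 with TMM, against 181 and 9518 on that scale.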

Other observations

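The 2 wild-type clone libraries (WT_clone), which enter no comparison and for which no mitochondrial gene was analysed here, have counts for the 7 chromosome 1 copies. Gm10925, identical to mt-Atp6 over 678 bases, had 1047 and 543 counts per 1e6 counts of genes present in both tables in WT_clone, 784 and 264 in DeltXp, 556 and 219 in DeltXp_DeltXm, and 137, 123 and 256 in WT_EV. Gm28439, identical to mt-Nd4 over 876 bases, had 81.9 and 13.045 in WT_clone, 34.6 and 15.1 in DeltXp, 76.7 and 17.5 in DeltXp_DeltXm, and 6.83, 2.82 and 9.14 in WT_EV on the same scale. For both copies each WT_clone library lay above each WT_EV library. Copies also went the other way: Gm28437 had 434 and 593 in WT_clone and 701 to 1001.7 in WT_EV, and Gm28438 had 39.8 and 7.55 in WT_clone and 70.0 to 108 in WT_EV. The other 3 copies overlapped between WT_clone and WT_EV. The 7 copies together had 2290 and 1402 in WT_clone, 2020.3 and 836 in DeltXp, 1904 and 699 in DeltXp_DeltXm, and 1646, 1170.5 and 1506 in WT_EV, where the groups overlap. The tables were deposited separately, and these differences were not tested.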
